A study of Mus musculus with 16 samples.

Results

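A set of 10 imprinted genes with known roles in growth were followed in 2 lines of immortalized mouse embryonic fibroblasts: Igf2, H19, Dlk1, Meg3, Mest, Plagl1, Grb10, Peg3, Peg10 and Igf2r. These are 10 of the 24485 gene IDs in the deposited files, and all 10 were found there. They were picked by name, with their levels by line and day in view, so their levels and line differences are given here as description and no p-value is given for them. The exp line has the genotype R26M2rtTA/+;TetOcre;Sdhcfl/fl, in which doxycycline (1 µg/mL) turns on a Cre recombinase that can rearrange both copies of Sdhc, a membrane subunit of succinate dehydrogenase. The ctl line is R26M2rtTA/+;TetOcre;Sdhcfl/wt: it shares the transactivator, the Cre transgene and the drug, and has 1 floxed and 1 wild-type copy. Each line was sampled at days 0, 5, 9, 12, 16 and 20, with 3 biological replicates at day 16 and 1 library on each other day, 16 libraries in all. Each genotype is 1 line, so line and genotype cannot be told apart, and whether a line is 1 clone is not stated in the labels.

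An imprinted gene is read mainly from the copy inherited from 1 parent, because a control region nearby was methylated in only 1 of the germ lines. Imprinted genes lie in domains, and a domain often pairs a protein-coding gene read from the paternal copy with a noncoding RNA read from the maternal copy; Igf2 with H19 and Dlk1 with Meg3 are the classic pairs. Paternally expressed genes of the set include Igf2, Dlk1, Mest, Plagl1, Peg3 and Peg10, while H19, Meg3, Igf2r and, in most tissues, Grb10 are read from the maternal copy. Many are abundant in the embryo and fall after birth, and embryonic fibroblasts are a common place to study them. The values here are FPKM (fragments per kilobase of transcript, scaled to the mapped reads of the library). They are set per length, but the annotation, and so the lengths used, is not given. The order of levels between genes depends on those lengths. The values are totals over both copies of a gene and do not show which parental copy was read. In such bulk samples, fewer cells of a type and less RNA per cell cannot be told apart.

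The libraries held 18121520 to 42486438 reads in genes. At day 16 replicate 1 stood apart from the other replicates of its line. Over all genes, replicates 2 and 3 had r = 0.995 with each other and 0.951 and 0.953 with replicate 1 in the exp line; the same values for ctl were 0.997, 0.979 and 0.981. The values below are therefore given per library, and the line difference is given for replicate 1 and for replicates 2 and 3 apart. Sdhc itself, at 87.8 FPKM (exp) and 90.5 FPKM (ctl) on day 0, averaged 32.0 ± 5.23 and 49.4 ± 1.66 on day 16 (SD, n = 3 each). The 12 fibroblast markers (collagens, Pdgfra, Thy1, Vim and others) summed to 4632 to 5355 FPKM in exp and 4121 to 4414 in ctl. Single markers differed between the lines in both directions. Pdgfra had 15.2 to 31.0 FPKM in exp and 47.7 to 59.2 in ctl, and Col1a2 373 to 721 and 80.4 to 103. At day 16 the limma fit called 3 of the 11 tested higher and 2 lower in exp, against 6.10% of all genes. Skeletal muscle markers summed to at most 0.360 FPKM, endothelial markers to at most 1.58 and blood cell markers to at most 6.32. Cd68, the 1 blood cell marker tested at day 16, was called lower in exp by limma. Adipocyte markers summed to 9.16 to 30.8 in exp and 7.16 to 11.2 in ctl, with Adipoq and Plin1 at most 0.0400 and 0.0246. Of the 2 adipocyte markers tested at day 16, 0 were called. The 7 mesothelial markers differed in spread, with sums of 71.7 to 866 in exp and 97.2 to 127 in ctl. The 4 epithelial markers summed to 6.80 to 108 and 1.21 to 1.92, and Krt14 alone made this difference. Krt14 had 5.71 to 107 FPKM in exp and at most 0.217 in ctl. Epcam reached at most 0.357 and 0.225 FPKM, and Krt5 at most 0.0405 and 0.0285. Cdh1 went the other way, with medians of 0.922 FPKM in exp and 1.19 in ctl, although its lines overlapped.

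The promoters below are shown as the sequence before the annotated starts of these genes. The imprint control regions of the domains were not located or searched, so counts in these windows are not counts for those regions. Each is the 250 bases before an annotated start, from the RefSeq promoter table built on GRCm38.p6, placed by an exact match on mm9 (1-based) and printed 5′ to 3′ on the gene's own strand. The table held 15 such windows for 8 of the 10 genes; H19 and Peg10 had no entry. Capitals mark the hexamer TGCCGC or its reverse complement GCGGCA, the core recognised, when methylated, by ZFP57, a zinc finger protein that keeps imprints through early development. Both strands were searched.
Meg3, chr12:110778956-110779205, plus strand: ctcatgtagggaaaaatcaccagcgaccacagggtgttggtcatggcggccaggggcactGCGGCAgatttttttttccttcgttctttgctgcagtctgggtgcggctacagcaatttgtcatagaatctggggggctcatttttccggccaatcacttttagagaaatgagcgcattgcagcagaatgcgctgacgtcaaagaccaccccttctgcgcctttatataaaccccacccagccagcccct
Plagl1, chr10:12810388-12810637, plus strand: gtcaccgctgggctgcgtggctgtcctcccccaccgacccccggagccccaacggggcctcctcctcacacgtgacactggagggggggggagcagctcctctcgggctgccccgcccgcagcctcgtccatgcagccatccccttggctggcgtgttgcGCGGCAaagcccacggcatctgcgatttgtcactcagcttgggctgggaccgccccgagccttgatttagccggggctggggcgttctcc
Mest, chr6:30687800-30688049, plus strand: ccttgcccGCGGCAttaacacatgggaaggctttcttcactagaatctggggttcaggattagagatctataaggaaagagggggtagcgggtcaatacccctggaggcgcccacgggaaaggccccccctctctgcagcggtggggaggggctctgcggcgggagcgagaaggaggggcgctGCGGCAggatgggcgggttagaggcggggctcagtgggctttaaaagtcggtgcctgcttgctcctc
Dlk1, chr12:110690783-110691032, plus strand: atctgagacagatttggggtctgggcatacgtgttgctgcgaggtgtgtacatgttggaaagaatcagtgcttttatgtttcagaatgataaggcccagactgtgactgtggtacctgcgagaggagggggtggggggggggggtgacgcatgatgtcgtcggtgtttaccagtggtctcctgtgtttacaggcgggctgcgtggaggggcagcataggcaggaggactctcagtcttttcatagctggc
Peg3, chr7:6683131-6683380, minus strand: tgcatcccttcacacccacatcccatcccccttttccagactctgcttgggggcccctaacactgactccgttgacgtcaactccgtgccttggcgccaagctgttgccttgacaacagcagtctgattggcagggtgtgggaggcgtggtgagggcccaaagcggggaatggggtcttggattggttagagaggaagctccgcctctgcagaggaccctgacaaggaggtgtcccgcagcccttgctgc
The hexamer was found in 4 of the 15 windows, of 3 genes: once in Meg3, once in Plagl1 and 2 times in each of the overlapping Mest windows. Among all 21939 promoter windows of that length 10.4% held it. The YY1 core AANATGGC, a motif repeated in some imprint control regions, was in 0 of the 15 windows and in 3.8% of all windows. No window of these genes held both motifs, so the matches do not overlap. CpG dinucleotides, the targets of methylation, numbered 40 in the upstream Grb10 window, as many as or more than in 98.6% of all windows, 27 in Igf2r, 19 in Plagl1, 14 in the Mest window shown, 10 in that of Meg3, and 8 in those of Dlk1 and Peg3, against a median of 10 over all windows. The 4 Igf2 windows held 1, 10, 22 and 6. These are letter counts only, and no methylation was measured in the libraries used here.

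Igf2 and H19 were both lower in the exp line on every day, by factors that differed between days. Igf2 (mm9 chromosome 7, 149836673 to 149852721, minus strand) encodes insulin-like growth factor 2, a growth factor of the embryo. In exp it had 5.88, 6.35, 9.59 and 17.1 FPKM at days 0, 5, 9 and 12, then 8.68, 16.9 and 14.0 in day 16 replicates 1, 2 and 3, and 12.5 at day 20. The ctl line had 74.1, 81.4, 62.6, 80.6, then 60.0, 68.4 and 77.7 at day 16, and 58.3 at day 20. The highest exp library stood below the lowest ctl library, and the median was 6.45 times higher in ctl (71.2 against 11.1 FPKM). Within exp every value from day 9 on was above those of days 0 and 5. The day 20 value was 2.13 times that of day 0, against 0.786 times in ctl.

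H19 (chromosome 7, 149761434 to 149764048, minus strand) is the noncoding RNA on the other side of the control region that it shares with Igf2. In exp it had 59.6, 63.2, 70.3 and 99.8 FPKM at days 0 to 12, then 117.9, 259.5 and 270.0 at day 16, and 91.0 at day 20. The ctl values were 621.9, 761.8, 691.4 and 815.9, then 705.0, 1262 and 1350.4 at day 16, and 662.6 at day 20. Day 16 replicates 2 and 3 were the highest libraries of both lines, and the lines did not overlap. The ctl median, 733 FPKM, was 7.69 times the exp median of 95.4. On the log2(FPKM + 1) scale used for all line differences here, the day 16 difference (exp minus ctl) was -2.39 ± 0.40 for H19 and -2.33 ± 0.24 for Igf2 (limma estimate ± SE, n = 3 per line). For H19 it was -2.57 in replicate 1 and -2.30 in replicates 2 and 3, and for Igf2 -2.66 and -2.17. The difference was already -3.36 for H19 and -3.45 for Igf2 at day 0. At day 12 it was -3.02 for H19 and -2.17 for Igf2, and at day 20 -2.85 and -2.13.

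**Figure D1:**
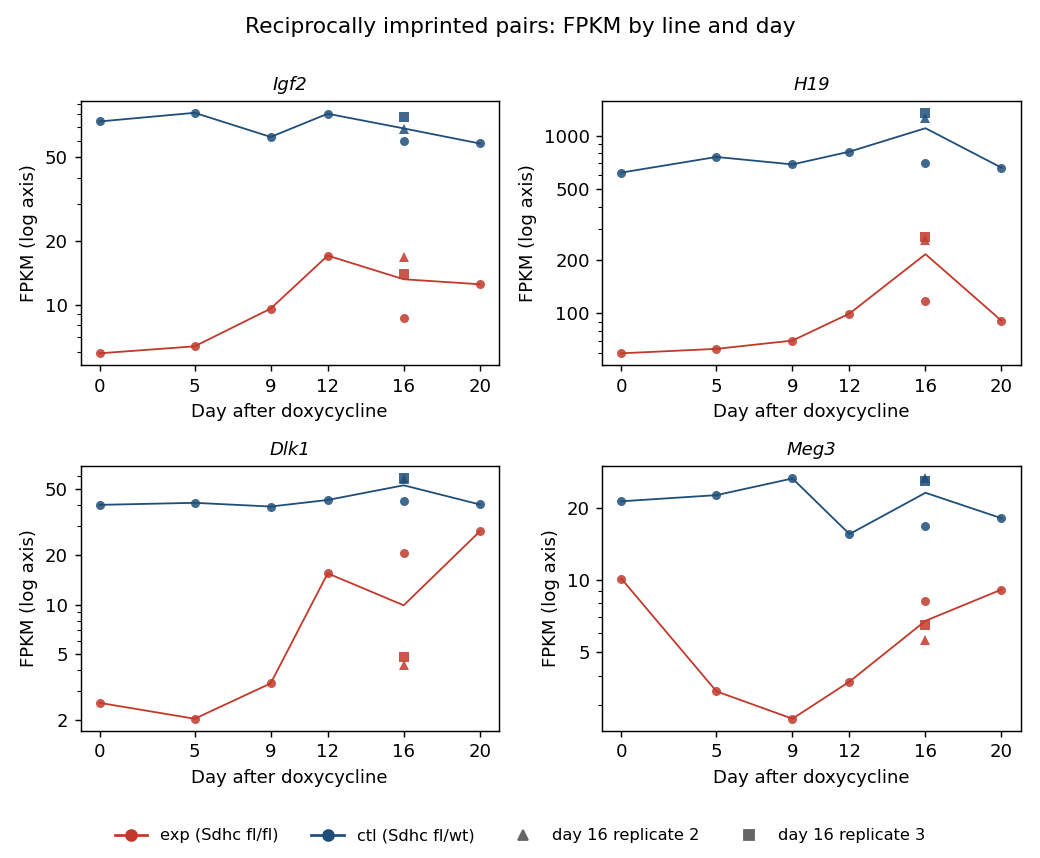
FPKM (log axis) of Igf2, H19, Dlk1 and Meg3 against day after doxycycline, for the exp line (red) and the ctl line (blue); points are libraries, triangles and squares day 16 replicates 2 and 3, and lines pass through the day 16 mean. All 4 genes were lower in exp on every day, while exp Dlk1 went from 2.53 FPKM at day 0 to 27.8 at day 20 with 4.27 and 4.82 in day 16 replicates 2 and 3.

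The ratio of H19 to Igf2 within a library had a similar range in both lines. It ran from 5.83 to 19.2 in exp (mean 11.1 ± 4.62, SD over 8 libraries) and from 8.39 to 18.5 in ctl (12.2 ± 3.69). The highest ratios of both lines were in day 16 replicates 2 and 3, which had 15.3 and 19.2 (exp) and 18.5 and 17.4 (ctl). Between successive days, with the mean of day 16, the pair moved in the same direction in 4 of 5 steps in exp and 4 of 5 in ctl; with day 16 replicate 1 alone it did so in 3 and 5. Igf2 and H19 were thus low together in exp and high together in ctl, rather than 1 high where the other was low.

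H19 carries the miRNA gene Mir675 in its transcript, and Mir675 has a value of its own in the data. So do Mir483 (in Igf2), Mir335 (in Mest) and Mir770 (in Meg3), which had at most 7, 3 and 24 reads per library and are not shown. The arms of Mir675, from RefSeq, are given with the seed (bases 2 to 8) in capitals.
miR-675-5p: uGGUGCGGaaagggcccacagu
miR-675-3p: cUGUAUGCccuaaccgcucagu
The arms do not share a seed. Mir675 had 221 to 884 FPKM in exp and 2493 to 4727 in ctl, without overlap. It lies inside H19 on the same strand, so its reads cannot be told apart from those of the H19 transcript, and an mRNA library does not measure the mature miRNA.

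Of the other genes listed for this end of chromosome 7, which includes the neighbouring Kcnq1 domain, 5 of 13 were abundant enough to be tested at day 16 and 0 passed (limma; 0 also at the slope). Cdkn1c, a maternally expressed inhibitor of cell division, had 7.30, 1.73 and 1.44 FPKM in the exp replicates and 11.7, 6.14 and 5.75 in those of ctl, a difference of -1.16 ± 0.52 (limma, Benjamini-Hochberg adjusted p = 0.259). Without exp replicate 1 the difference was -1.72 and passed (limma adjusted p = 0.0235). Osbpl5, a lipid transfer protein, differed by -0.18 ± 0.08 (adjusted p = 0.281). Igf2os, antisense to Igf2 and named after its values were seen, had 4 to 19 reads per library in exp and 31 to 94 in ctl; without a known strand setting these cannot be told apart from Igf2 reads.

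Dlk1 and Meg3 were also both lower in exp in every library. The line difference of Dlk1 varied widely with day and replicate, and that of Meg3 was largest at day 9. Dlk1 (chromosome 12, 110691033 to 110701546, plus strand) encodes a membrane protein of the Notch ligand family that holds back the differentiation of preadipocytes. In exp it had 2.53, 2.03 and 3.33 FPKM at days 0, 5 and 9 and 15.5 at day 12, then 20.6, 4.27 and 4.82 at day 16, and 27.8 at day 20. Ctl levels were 40.3, 41.5, 39.4 and 43.2, then 42.5, 58.0 and 58.5, and 40.6 at day 20. The lines did not overlap, and the day 20 value was 10.97 times the day 0 value in exp and 1.01 times in ctl. At day 16 the difference was -2.62 ± 0.55 (SE), made up of -1.01 in replicate 1 and -3.42 in replicates 2 and 3; the day 0 and day 20 differences were -3.55 and -0.53. The replicates of exp thus differed from each other by more than exp replicate 1 differed from ctl. The sum of the mesothelial markers was likewise high in exp day 16 replicate 1 and at day 20 (866 and 768 FPKM) and low in replicates 2 and 3 (71.7 and 81.5); Plagl1 and Rian were also highest in exp in day 16 replicate 1 and at day 20. The part of the markers in these levels was not tested.

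Meg3 (chromosome 12, 110779211 to 110809936, plus strand) is the long noncoding RNA at the head of the maternally expressed transcripts of the domain. In exp it had 10.1, 3.44, 2.64 and 3.77 FPKM at days 0 to 12, then 8.16, 5.63 and 6.51 at day 16, and 9.14 at day 20. Those of ctl were 21.3, 22.6, 26.6 and 15.6, then 16.8, 26.6 and 26.0, and 18.1 at day 20. The lines did not overlap, and the ctl median was 3.62 times the exp median. In exp the level was lowest at day 9 and nearly back at its day 0 value by day 20. The day 16 difference was -1.62 ± 0.21, with -0.96 in replicate 1 and -1.95 in replicates 2 and 3.

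The ratio of Meg3 to Dlk1 was steady in ctl and not in exp. In ctl it stayed between 0.361 and 0.674 (mean 0.482 ± 0.0990, SD over 8 libraries). The exp ratio was 4.0, 1.69, 0.794 and 0.244 on days 0, 5, 9 and 12, then 0.395, 1.32 and 1.35 in the day 16 replicates and 0.329 on day 20. By FPKM, Meg3 was thus the higher of the pair in exp at days 0 and 5 and in day 16 replicates 2 and 3. Dlk1 was higher in the other exp libraries and in every ctl library. This order depends on the lengths used. In reads, Meg3 was above Dlk1 in every ctl library except that of day 12 (5665 against 5834). With the mean of day 16, the pair moved in the same direction in 3 of 5 steps in each line; with replicate 1 it did so in 4 in exp and 1 in ctl.

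**Figure D2:**
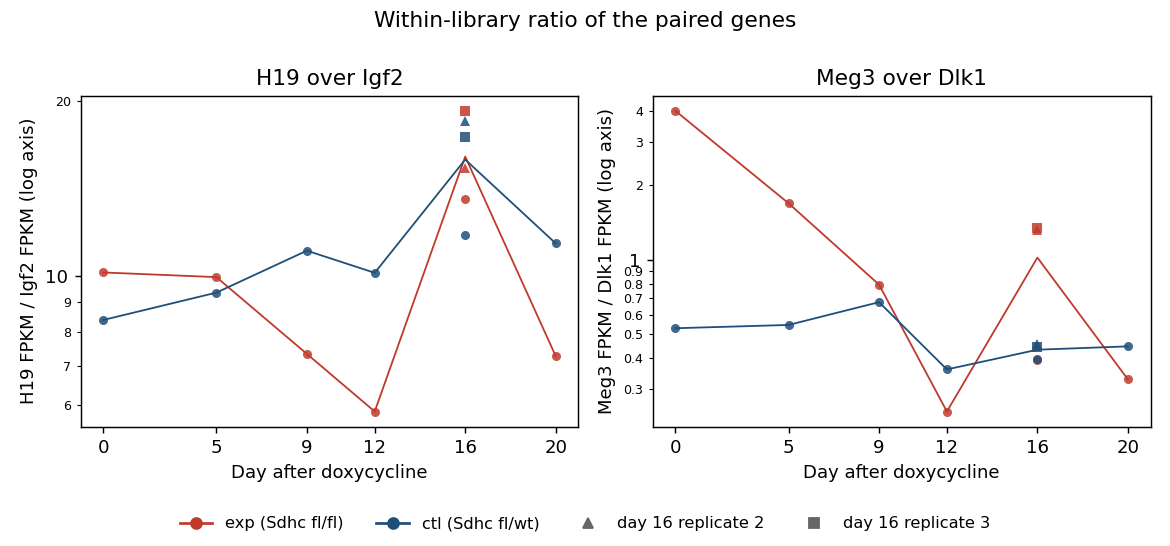
Within-library FPKM ratios of paired genes (log axis) by day after doxycycline, for exp (red) and ctl (blue), 1 point per library. H19 over Igf2 covered 5.83 to 19.2 in exp and 8.39 to 18.5 in ctl, whereas Meg3 over Dlk1 covered 0.244 to 4.0 in exp and 0.361 to 0.674 in ctl.

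Of the 3 other noncoding RNAs of the domain that were tested, Rian and Mirg were lower in exp. Rian, which hosts small nucleolar RNAs and lies downstream of Meg3 (110842155 to 110899919), had 29.8, 14.0 and 15.7 FPKM in the exp day 16 replicates and 42.0, 57.5 and 55.1 in those of ctl. The difference was -1.40 ± 0.29 (limma, Benjamini-Hochberg adjusted p = 0.0480; 0.0812 with the replicate number as a block). Mirg, a host of miRNAs further downstream (110973191 to 110987665), had 4.72, 1.90 and 2.37 against 7.30, 9.42 and 9.58, a difference of -1.34 ± 0.27 (adjusted p = 0.0438; 0.0723 with the block). For both RNAs the lines did not overlap in any of the 16 libraries. The remaining one, Dio3os, lies beside Dio3 on the opposite strand, had 0.0639 to 1.98 FPKM in exp and 1.05 to 2.47 in ctl, and was not called (-0.62 ± 0.38, limma adjusted p = 0.394). Leaving out any day 16 replicate other than exp replicate 1 ended both calls. Without exp replicate 2 or 3 the limma adjusted p was 0.144 and 0.157 for Rian and 0.124 and 0.145 for Mirg. Without ctl replicate 1, 2 or 3 it was 0.0840, 0.162 and 0.174 for Rian and 0.0813, 0.153 and 0.166 for Mirg. The ratio of Rian to Meg3 ran from 2.0 to 3.65 in exp and from 1.95 to 2.77 in ctl. Dio3, a thyroid hormone deiodinase at the far end of the domain and named after its values were seen, had 0.118 to 0.516 FPKM in exp apart from 5.51 and 3.12 in day 16 replicates 2 and 3, and 3.41 to 8.96 in ctl (day 16 difference -1.43 ± 0.53; limma adjusted p = 0.189).

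Peg3 was the one gene of the 10 that was higher in exp on every day. Peg3 (chromosome 7, 6656603 to 6683132, minus strand) encodes a large zinc finger protein linked to fetal growth and maternal behaviour. In exp it had 10.9, 10.8, 5.02 and 7.74 FPKM at days 0 to 12, then 15.9, 4.60 and 4.90 at day 16, and 13.5 at day 20. In ctl it lay between 0.108 and 0.323 FPKM, from 19 to 91 reads per library. The exp median was 71.1 times the ctl median. The day 16 difference was 2.74 ± 0.43, with 3.93 in replicate 1 and 2.15 in replicates 2 and 3; it was 3.35 at day 0. This scale understates the change, since ctl lay below the added 1, and with an added 0.1 the estimate was 4.99.

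Of the other transcripts listed for the Peg3 domain, 1 was abundant enough to be tested. This was Peg3os, which is read from the opposite strand at Peg3 and was higher in exp. It had 21.8, 6.33 and 6.86 FPKM in the exp day 16 replicates and 0.199, 0.299 and 0.285 in ctl, a difference of 3.12 ± 0.44 (limma adjusted p = 0.0161). Because it is antisense to Peg3 and the strand setting of the counting is not given, reads of the pair cannot be told apart. The call was lost without ctl replicate 1, 2 or 3 (limma adjusted p = 0.0550, 0.0742 and 0.0778) and with a pseudocount of 5 (0.0554). Usp29 and Zim1, further genes of the domain that were too low to be tested and are named after their values were seen, had 1 to 16 and 2 to 16 reads in the exp libraries. In ctl, Usp29 had 0 reads in all 8 libraries, which by counting error allows up to 3 expected reads in each, and Zim1 had 0 or 1. Zim2 was listed at 0 in all 16 libraries, and Zim3 had at most 0.0597 FPKM in exp and was listed at 0 in ctl.

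Markers of another cell type moved with Peg3 in exp. The 7 mesothelial markers summed to 264, 245, 131 and 232 FPKM in exp at days 0 to 12, to 866, 71.7 and 81.5 in day 16 replicates 1, 2 and 3, and to 768 at day 20. Upk3b had 22.9 to 455 FPKM in exp and 0.115 to 0.611 in ctl, Krt18 2.03 to 41.5 and 0.0614 to 0.282, and Wt1 2.10 to 28.2 and 0 to 0.0202. Upk1b had 10.2 to 110.1 FPKM in exp and at most 0.215 in ctl, Krt19 16.1 to 92.5 and 6.08 to 13.3, and Krt8 0.119 to 7.76 and 0.0173 to 0.0592. Msln went the other way in most libraries, with 15.3 to 131 FPKM in exp and 84.8 to 121 in ctl. Its day 16 difference was 0.34 in replicate 1 and -2.67 in replicates 2 and 3 (all 3, -1.67 ± 0.77; limma adjusted p = 0.273). Peg3 was likewise highest in day 16 replicate 1 and at day 20 and lowest in replicates 2 and 3. In ctl, Msln and Krt19 made up nearly all of the sum, and the other 5 markers, like Peg3, were at most 0.611 FPKM. Their part in the Peg3 result was not tested.

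Peg10, Mest and Plagl1, all paternally expressed, each behaved differently. Peg10 (chromosome 6, 4697306 to 4710514, plus strand), a gene derived from a retrotransposon and needed for the placenta, had 25.5, 31.1, 18.9 and 21.7 FPKM in exp at days 0 to 12, then 25.0, 34.3 and 35.9 at day 16, and 21.1 at day 20. The ctl libraries had 133, 123, 132 and 146, then 148, 88.3 and 80.9, and 146 at day 20. The lines did not overlap, and the ctl median was 5.25 times that of exp. Day 16 replicates 2 and 3 were the lowest of ctl and the highest of exp, so the difference was -2.52 in replicate 1 and -1.24 in replicates 2 and 3 (all 3 replicates, -1.67 ± 0.26).

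Sgce, which is read in the opposite direction from the same promoter region as Peg10, had a smaller difference of the opposite sign. It had 13.1 to 23.6 FPKM in exp and 10.8 to 17.2 in ctl, and differed by 0.28 ± 0.12 at day 16 (limma adjusted p = 0.245). The ratio of Sgce to Peg10 was 0.365 to 1.09 in exp and 0.0920 to 0.145 in ctl, without overlap. Pon2, a paraoxonase further along the domain, was higher in exp, with 23.6, 21.1 and 21.3 FPKM at day 16 against 11.4, 14.8 and 15.8 (0.63 ± 0.13, limma adjusted p = 0.0446; 0.0709 with the replicate block). Among the fits that left out 1 library, the Pon2 call was kept without ctl replicate 1; leaving out exp replicate 1, 2 or 3 gave a limma adjusted p of 0.0573, 0.134 or 0.133, and leaving out ctl replicate 2 or 3 gave 0.128 or 0.0954.

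Mest (chromosome 6, 30673547 to 30698457, plus strand), an enzyme of the alpha/beta hydrolase fold family named for its mesodermal expression, had 7.72, 9.92, 8.91 and 13.6 FPKM in exp at days 0 to 12, then 20.9, 44.4 and 28.2 at day 16, and 18.6 at day 20. Ctl had 35.1, 46.3, 41.3 and 48.5, then 43.1, 33.3 and 35.7, and 48.8 at day 20. The lines overlapped only through exp day 16 replicate 2, which was above all 3 ctl replicates of that day. The lines differed by -2.05 at day 0 and by -1.35 at day 20. The day 16 difference was -0.31 ± 0.27, with -1.01 in replicate 1 and 0.03 in replicates 2 and 3, so that its sign depends on which replicates are read. Copg2, a coat protein gene whose end overlaps that of Mest on the opposite strand, had 9.67 to 25.0 FPKM in exp and 19.9 to 26.4 in ctl. Its day 16 difference was -0.10 ± 0.15 (limma adjusted p = 0.754), and reads in the overlap could count for either gene.

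Plagl1 changed sides during the course. Plagl1 (chromosome 10, 12810497 to 12851500, plus strand) encodes a zinc finger transcription factor that arrests growth and acts on other imprinted genes. In exp it had 22.4, 24.4, 16.1 and 40.1 FPKM at days 0 to 12, then 59.5, 43.2 and 41.7 at day 16, and 66.9 at day 20. In ctl it had 49.5, 57.7, 40.5 and 47.0, then 38.9, 33.3 and 34.4, and 40.1 at day 20. Exp was the lower line at days 0, 5, 9 and 12 and the higher line at days 16 and 20, with differences of -1.11 at day 0 and 0.72 at day 20. At day 16 the replicates did not overlap (0.41 ± 0.15), with 0.60 in replicate 1 and 0.32 in replicates 2 and 3. Its neighbour Phactr2, a phosphatase and actin regulator, differed by -0.05 ± 0.07 at day 16 (limma adjusted p = 0.738).

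**Figure D3:**
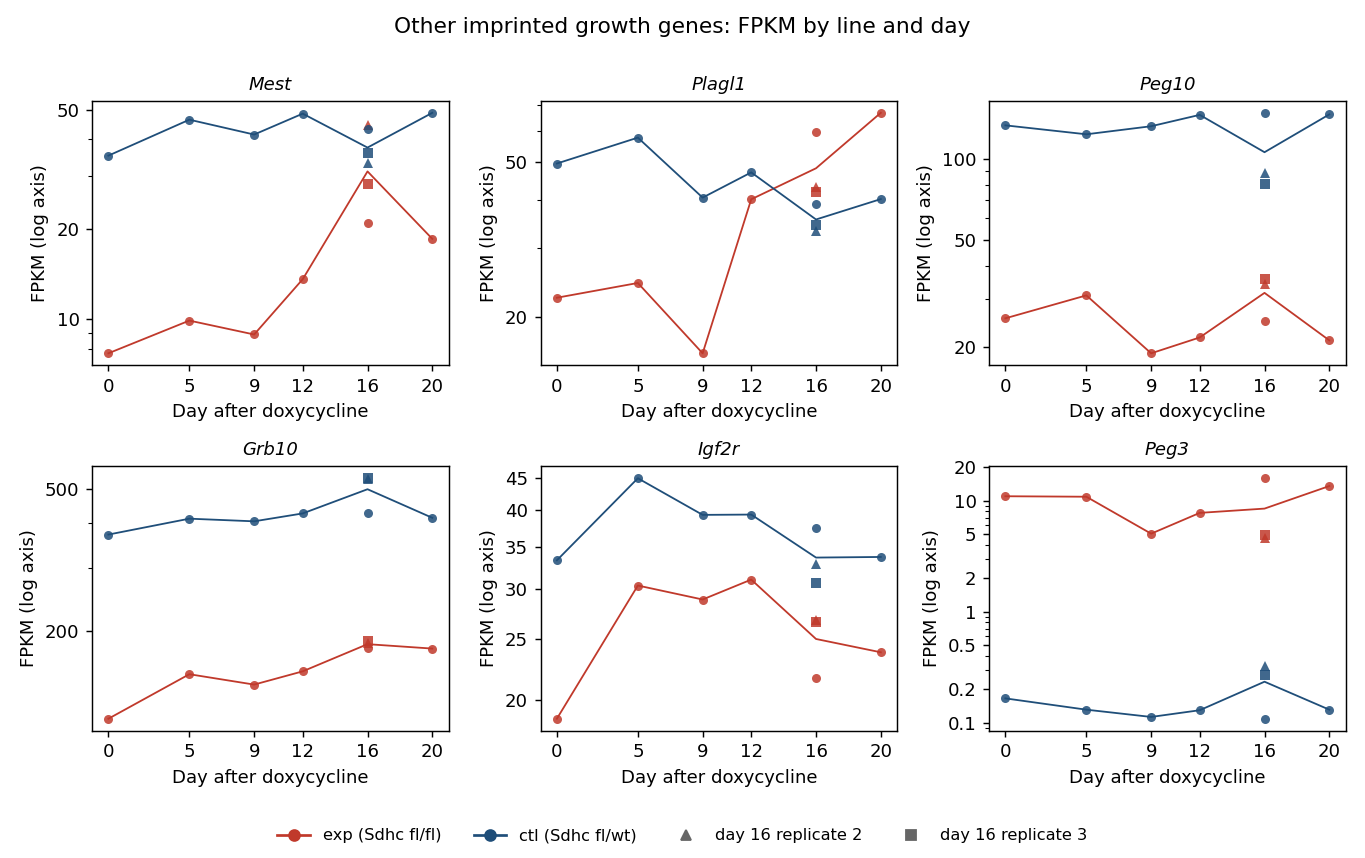
FPKM (log axis) of Mest, Plagl1, Grb10, Peg3, Peg10 and Igf2r against day after doxycycline in exp (red) and ctl (blue), with day 16 replicates 2 and 3 as triangles and squares and lines through the day 16 mean. Exp Plagl1 crossed above ctl between day 12 and day 16, exp Peg3 lay above ctl at every day, and Grb10 and Peg10 lay below.

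Grb10 and Igf2r limit growth signals and are read from the maternal copy in most cells. Grb10 (chromosome 11, 11830511 to 11938686, minus strand) encodes an adaptor that dampens insulin and IGF receptor signalling. It had 113, 151, 141 and 154 FPKM in exp at days 0 to 12, then 179, 184 and 187 at day 16, and 178 at day 20. The ctl line had 372, 412, 405 and 426, then 426, 533 and 535, and 414 at day 20. The lines did not overlap, and the difference stayed between -1.70 (day 0) and -1.21 (day 20), with -1.43 ± 0.10 at day 16, the smallest SE of the 10 genes. It was -1.25 in day 16 replicate 1 and -1.52 in replicates 2 and 3. Cobl, an actin nucleator of the same domain, had 9.39, 0.569 and 0.618 FPKM in the exp day 16 replicates and 0.360, 0.497 and 0.413 in ctl (1.07 ± 0.74, limma adjusted p = 0.461). Ddc, aromatic amino acid decarboxylase, also of that domain and named after its values were seen, had 0.137 to 4.52 FPKM in exp and at most 0.0960 in ctl. Both were highest in exp day 16 replicate 1 and at day 20, where the mesothelial markers were highest; the part of those markers was not tested.

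Igf2r (chromosome 17, 12875272 to 12962530, minus strand) encodes the receptor that takes IGF2 into the cell for breakdown. It had 18.7, 30.4, 28.9 and 31.0 FPKM in exp at days 0 to 12, then 21.7, 26.8 and 26.6 at day 16, and 23.8 at day 20. The corresponding ctl values were 33.3, 44.9, 39.3 and 39.3, then 37.4, 32.8 and 30.7, and 33.7 at day 20. The line ranges overlapped, although exp was the lower line on each of the 6 days; at day 16 the difference was -0.42 ± 0.11, with -0.76 in replicate 1 and -0.24 in replicates 2 and 3. Because Igf2 differed far more, the ratio of Igf2r to its ligand Igf2 was 1.58 to 4.78 in exp and 0.395 to 0.628 in ctl. Airn, the paternally expressed noncoding RNA that overlaps Igf2r on the opposite strand, had 1.68 to 3.39 FPKM in exp and 2.02 to 3.68 in ctl, and differed by -0.21 ± 0.10 at day 16 (limma adjusted p = 0.271).

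Over the 10 genes, 7 had lines that did not overlap in any of the 16 libraries, 6 lower in exp (Igf2, H19, Dlk1, Meg3, Grb10 and Peg10) and 1 higher (Peg3). Among all genes tested the lines did not overlap for 10.2%, with 4.65% lower and 5.50% higher in exp. At day 16 alone 9 of the 10 did not overlap, 7 lower and 2 higher, against 32.0% of all genes. The limma fit at day 16 called 7 of the 10, against 6.10% of all genes (3.10% higher and 3.01% lower), and the median difference was -1.53, against -0.01 over all genes. Since the genes were picked with these levels in view, these counts are not a test of them and nothing is read from them. At day 0, 9 of the 10 were already lower in exp.

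**Figure D4:**
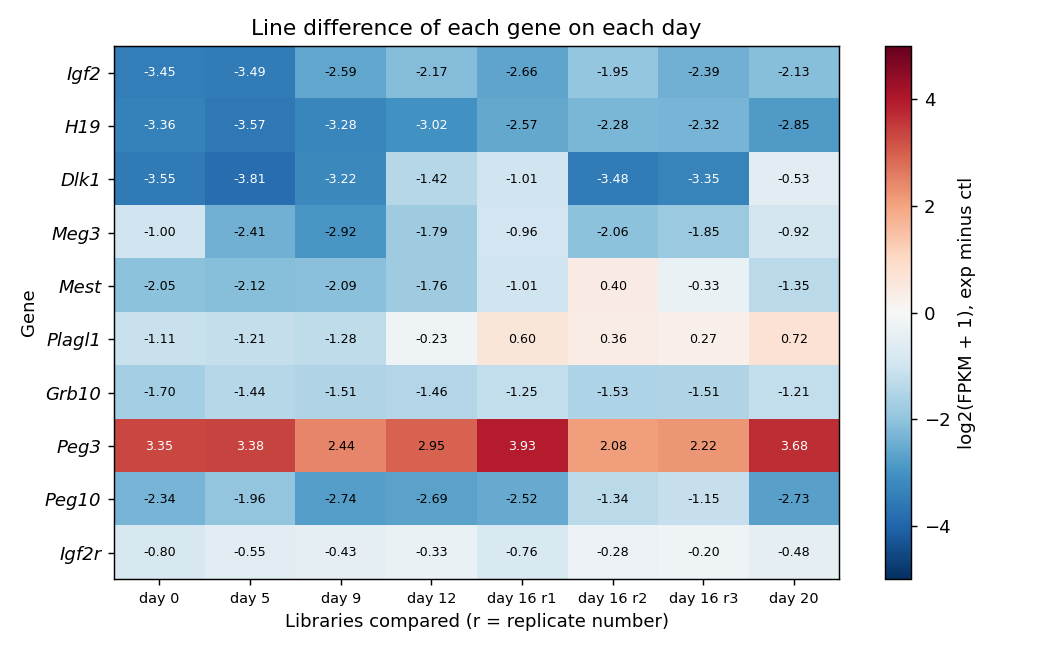
Difference between lines, exp minus ctl on the log2(FPKM + 1) scale, by day after doxycycline for each of the 10 genes, with the day 16 replicates shown apart. Peg3 lies above 0 throughout, Plagl1 crosses 0 after day 12, and Dlk1 goes from -3.55 at day 0 to -0.53 at day 20.

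Across days, the fit over all 16 libraries estimates by how much the line difference (exp minus ctl) shifted per 20 days, and this estimate was above 0 for 9 of the 10 genes. The estimates were 2.44 ± 1.05 (SE) for Dlk1, 2.29 ± 0.39 for Plagl1, 1.82 ± 0.67 for Mest, 1.49 ± 0.41 for Igf2 and 1.14 ± 0.65 for H19. They were 0.47 ± 0.67 for Meg3, 0.34 ± 0.18 for Grb10, 0.31 ± 0.20 for Igf2r, 0.24 ± 0.59 for Peg10 and -0.19 ± 0.75 for Peg3. The fit called 0 of the 10, against 0.207% of all genes (26 genes; 0.183% upward and 0.0239% downward), and the median estimate was 0.81, against -0.06 over all genes. The ratio of the day 20 to the day 0 level was 2.41 for Mest and 2.99 for Plagl1 in the exp line, against 1.39 and 0.810 in the ctl line.

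The order of levels in FPKM differed between the lines. In ctl it was H19, Grb10, Peg10, Igf2, Mest, Dlk1, Plagl1, Igf2r, Meg3 and Peg3, from a median of 733 FPKM down to 0.130. Each gene was above the next in all 8 ctl libraries, except Mest over Dlk1 in 5 and Dlk1 over Plagl1 in 4. In exp the order was Grb10, H19, Plagl1, Igf2r, Peg10, Mest, Igf2, Peg3, Meg3 and Dlk1, from 166 down to 4.55. Only H19 over Plagl1 held in all 8 exp libraries; Igf2r and Peg10, Igf2 and Peg3, and Meg3 and Dlk1 were not separated, with the first above the second in 3, 4 and 4 libraries.

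For each gene the 3 most similar of 9095 genes with a mean of at least 5 FPKM were found by Pearson's r of log2(FPKM + 1) over the 16 libraries after taking out each line's mean. The libraries share lines, days and the replicate sets of day 16, so r is a description only. Meg3 was most like Rian (r = 0.892) and Mirg (0.876), and Peg3 most like Peg3os (0.981), all from their own domains, followed for Peg3 by Vat1l (0.964) and Krt18 (0.961), a keratin on the mesothelial marker list. Reads of Peg3 and Peg3os cannot be told apart, so their r of 0.981 does not compare 2 separate measures. Dlk1 was most like Slit3 (0.959), Stbd1 (0.942) and Ltbp4 (0.906), and Plagl1 most like Samd9l (0.959), Trim25 (0.943) and Flrt2 (0.917). Igf2 was most like Rspo3 (0.933), Ccn3 (0.910) and Penk (0.873). H19 was most like Nuak1, Eid2 and Lrrc32 (0.964, 0.964 and 0.959), which fell to 0.841, 0.755 and 0.763 without day 16 replicates 2 and 3. Mest was most like Alx1, Il6st and Cpq (0.930, 0.925 and 0.913), Grb10 like Tmed10, Msrb3 and Eps8 (0.957, 0.945 and 0.931), Peg10 like Adam19, Nup50 and Pfn2 (0.949, 0.920 and 0.904), and Igf2r like Tcaf1, Capn6 and Ttc3 (0.913, 0.903 and 0.902). Without day 16 replicates 2 and 3, r was 0.760, 0.756 and 0.790 for the 3 genes of Peg10 and 0.838 and 0.725 for Mest with Alx1 and Cpq. It was at least 0.879 for the genes named beside the other 7 of the set. Of the classic pairs, Igf2 and H19 had r = 0.659 and Dlk1 and Meg3 0.358. Over all 16 libraries the highest values within the set were 0.810 (H19 and Grb10), 0.749 (H19 and Mest) and 0.713 (Dlk1 and Plagl1). Meg3 and Igf2r had -0.702. This order changed without day 16 replicates 2 and 3. Mest and Grb10 then had 0.907 (from 0.592) and Dlk1 and Plagl1 0.896. H19 and Mest had 0.892, as did Dlk1 and Mest (from 0.256), and H19 and Grb10 had 0.787. The classic pairs (0.640 and 0.357) and Meg3 with Igf2r (-0.695) changed little.

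Of 43 other genes listed for the 8 domains, 41 were in the files and 18 were abundant enough to be tested. At day 16 the limma fit called 2 higher (Peg3os and Pon2) and 2 lower (Rian and Mirg), 4 of 18 against 6.10% of all genes tested, with a median difference of -0.11, and the slope fit called 0 of 18 (0.17). With the replicate number as a block the day 16 fit called 1 of the 18 (Peg3os), against 1023 of 12533 genes. Reads of Peg3os cannot be told apart from those of Peg3. Among 15 tested imprinted genes of other domains, such as Ndn and Gnas, 0 passed at day 16 (median -0.05). Zdbf2, an imprinted gene too low to be tested and named after its values were seen, had 0.250 to 1.34 FPKM in exp and at most 0.00596 in ctl.

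**Figure D5:**
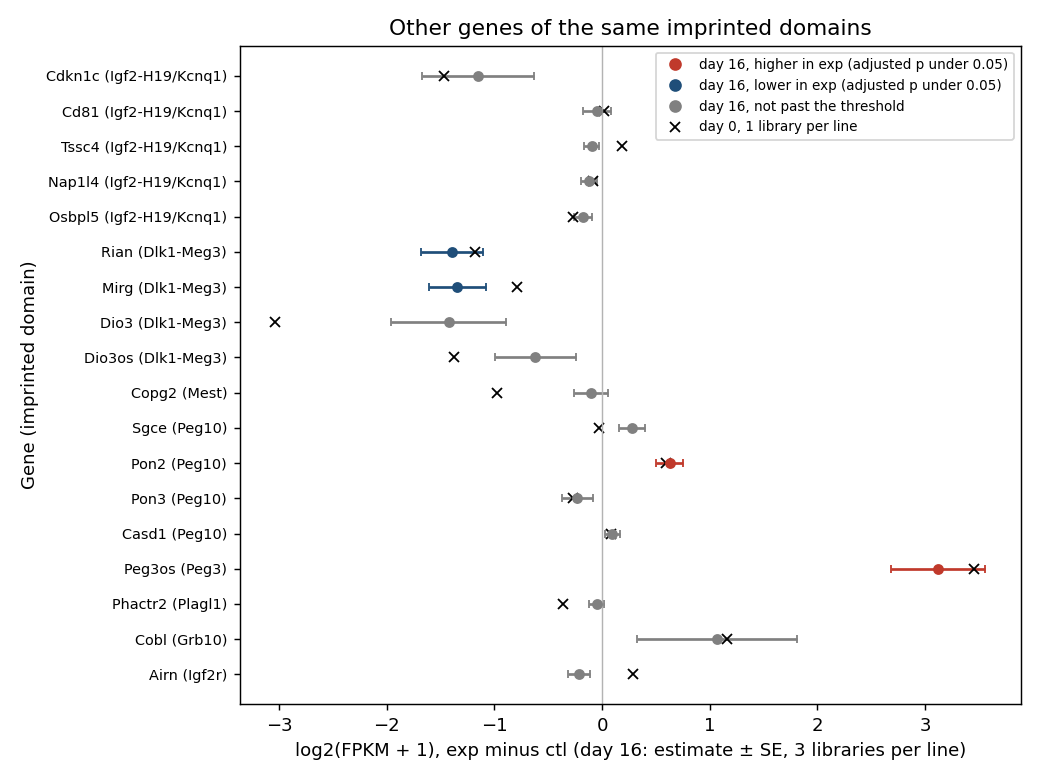
Day 16 difference (exp minus ctl, log2(FPKM + 1), estimate ± SE, 3 libraries per line) of the 18 tested domain genes outside the set, coloured by the limma call, with crosses for the single day 0 libraries. Rian and Mirg lie below 0 and Peg3os and Pon2 above it past the threshold. Of the genes listed for the Igf2-H19 and Kcnq1 domains, Cd81, Tssc4, Nap1l4 and Osbpl5 lie near 0. Cdkn1c lies at -1.16, not past the threshold (limma adjusted p = 0.259).

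Of 16 genes listed around the IGF pathway that Igf2, Igf2r and Grb10 belong to, 13 were tested, and 1 was called. The list held Igf1, receptors, IGF binding proteins, adaptors, and the RNA-binding proteins Igf2bp1, Igf2bp2, Igf2bp3, Lin28a and Lin28b. Igfbp5, a binding protein that holds IGFs in the matrix, was higher in exp at day 16, at 3.72, 4.96 and 5.29 FPKM against 1.27, 2.11 and 1.70 (1.07 ± 0.17, limma adjusted p = 0.0230). That call was lost without exp replicate 2 or 3 (0.0974 and 0.0931) or ctl replicate 2 or 3 (limma adjusted p = 0.0528 and 0.104). Its day 0 levels were 1.59 FPKM (exp) and 1.27 FPKM (ctl). The median of the list was 0.33 at day 16. Of 12 tested regulators of imprints, such as Ctcf, Trim28 and the DNA methyltransferases, 0 were called at day 16 (median 0.02); Dnmt3a, a de novo methyltransferase named after its values were seen, had 6.70 to 11.2 FPKM in exp and 4.04 to 5.45 in ctl, with a day 16 difference of 0.64 ± 0.16 (limma adjusted p = 0.0766).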

How the data were processed

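The 16 mRNA libraries (TruSeq v2, per the labels) were grouped by line and day from the sample titles. The authors deposited FPKM per Entrez gene ID, 1 file per library. The submitters' processing notes name Bowtie2 2.2.3 and mm9; which counter, annotation and strand option were used is not stated there or in the labels. Of 24485 IDs, 24416 matched a symbol. Gene coordinates are from the NCBIM37 (mm9) annotation. Whole reads were recovered from the FPKM steps for 18966 genes (every gene with reads in at least 2 libraries; tolerance 0.02 read), giving 18121520 to 42486438 reads per library; intervals and floors cover counting error only, and a 0 allows up to 3 expected reads.

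Models were fitted with limma 3.58.1 (statmod 1.5.0, R 4.3.3) to log2(FPKM + 1) over genes of mean FPKM of at least 1, with trend and robust empirical Bayes, two-sided, Benjamini-Hochberg adjusted over all genes tested at 0.05. Folds on this scale understate changes of low genes. The day 16 fit used 6 libraries; the slope fit used 16, with a shared day factor, line, and line by day scaled to 20 days. Both were also run on simulated reads in which libraries varied independently. Such reads lack the gap between day 16 replicate 1 and replicates 2 and 3, so they do not check its effect. P-values measure the spread between libraries of 1 line each. Same-numbered day 16 replicates deviated together (r = 0.381, 0.272 and 0.333). The main day 16 fit did not use this pairing, and a fit with the replicate number as a block is given as an alternative. Exp replicate 3 with ctl replicate 2 (0.398) and exp 2 with ctl 3 (0.209) deviated together too. The values therefore set replicate 1 apart from replicates 2 and 3 and do not match 2 and 3 by number, whereas the block does. The labels do not say how the replicates are related.

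The genes and lists were chosen with earlier results of these data known. Besides the 10 genes, named were domain genes called or among the 2 smallest day 16 p of their domain, up to 6 called genes per other list, and the 3 most similar genes; others are said to be named after their values were seen. The closing section gives the alternatives.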

Additional observations from a re-analysis of the deposited data

How the results depend on the processing

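The count of genes called at day 16 (765) was 493 with a mean FPKM of at least 5, 1023 with the replicate block, 811 with voom on the recovered reads, 4326 with day 16 replicates 2 and 3 only, and 197 to 1599 with 1 replicate left out. The 4 domain genes called at day 16 became 2 with no filter on low values, 1 with the replicate block (Peg3os), 11 with replicates 2 and 3 only, and 0 to 4 with 1 replicate left out. The slope count (26) was 49 after quantile normalization, 101 with the replicate block as a batch term, 1, 8, 14, 12 and 0 without day 0, 5, 9, 12 and 16, 0 with day 16 averaged, 2 without day 16 replicates 2 and 3, 27 with voom, and 2 to 35 with 1 replicate left out. Domain genes called by the slope fit stayed at 0 in every setting run. The settings with replicates 2 and 3 only, or without them, were chosen after seeing the data. The cause of these shifts was not tested, beyond fewer samples or genes.

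Of the 10 genes, 9 kept the sign of the day 16 difference in every alternative run; Mest kept it in 15 of 16 (0.03 with replicates 2 and 3 only). The Peg3 difference ranged from 1.26 to 4.99 with the pseudocount and the other settings. The slope sign was kept in 23 of 24 alternatives for Meg3, 21 of 24 for Peg10 and 16 of 23 for Peg3, and in every one for the other 7. Rian also lost its day 16 call with no filter (limma adjusted p = 0.0720), a mean FPKM of at least 5 (0.0510), median-of-ratios rescaling (0.0522) and limma without trend and robust (0.0512), Mirg and Pon2 with no filter (0.0645 and 0.0637). With replicates 2 and 3 only, Cdkn1c, Osbpl5 and Sgce gained a call (limma adjusted p = 4.64e-05, 0.0256 and 0.0202). That setting was chosen after seeing the data and called 4326 of 12474 genes. With 1 library per line on 5 of the 6 days, single-day differences have no replicate check.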
